A study of Caenorhabditis elegans with 21 samples.

Results

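The comparison is between worms carrying the hif-1(ia4) mutation and N2, the wild-type strain of Caenorhabditis elegans. The label of each names no other mutation. Its members are the 3 libraries labelled hif-1 and the 3 labelled N2, 6 of the 21 libraries of the series, and all genes with enough counts to be tested. Both strains were grown on NGM agar with ample OP50 bacteria, and each sample held 30 to 50 whole young adults, age-matched and taken before eggs could be seen inside them. The labels name no low-oxygen treatment for either strain. RNA was freed with proteinase K, purified with a Zymo kit and made into libraries by SmartSeq2, a full-length cDNA method that does not record the strand of a transcript. The series also holds 5 other genotypes in 3 libraries each, and their values are set beside the comparison where they bear on it. These are egl-9(sa307) hif-1(ia4), which carries the same hif-1 allele, and egl-9(sa307), vhl-1(ok161), rhy-1(ok1402) and egl-9(sa307);vhl-1(ok161). Nothing in the labels says that libraries of the same genotype were grown as separate cultures, so the p-values reflect just the spread among these samples, which may be technical.

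HIF-1 is a transcription factor of the bHLH-PAS family that pairs with AHA-1 and drives the response of the worm to low oxygen. In well-oxygenated worms the prolyl hydroxylase EGL-9 marks HIF-1, VHL-1 and its CUL-2 ubiquitin ligase recognise the mark, and the proteasome destroys the protein. RHY-1 and the cysteine synthase-like protein CYSL-1 act upstream of EGL-9, and the genes rhy-1 and egl-9 are themselves targets of HIF-1. The factor is also known in the worm for repressing the ferritin genes when iron is scarce. The allele ia4 is a deletion inside the gene.

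The 6 libraries held 8071482 to 9608866 estimated counts, with a count for 15471 to 15802 genes. A level is a count scaled to the size of its library (CPM), changes are log2 fold changes of hif-1 over N2 with a standard error derived from the test, and a call needs a Benjamini-Hochberg adjusted p under 0.05 in the quasi-likelihood test of edgeR. Of 12974 tested genes, 1870 (14.4%) were called, 1070 (8.25%) raised and 800 (6.17%) lowered in hif-1. The raised genes moved further, with a median of 0.73 against −0.41 for the lowered genes and 0.04 for all tested genes. A change of at least 2-fold was called for 386 genes (2.98%), 297 of them raised and 89 lowered. Among those called, 1012 of the raised and 764 of the lowered genes had all 3 hif-1 libraries on the same side of all 3 N2 libraries, as did 4197 of all tested genes (32.3%). Most genes named below were chosen with no overlap between groups as a condition, so their lack of overlap is a description and adds no evidence. When genes were ranked by mean level and cut into 3 equal parts, 6.06% of the lowest, 15.1% of the middle and 22.1% of the highest part were called. On the first principal component of the 6 libraries, which held 44.8% of the variance, hif-1 lay between −37.5 and −18.7 and N2 between 10.9 and 38.1. Because RNA came from whole worms, fewer cells of a type and less RNA per cell cannot be told apart in any of these changes.

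**Figure D1:**
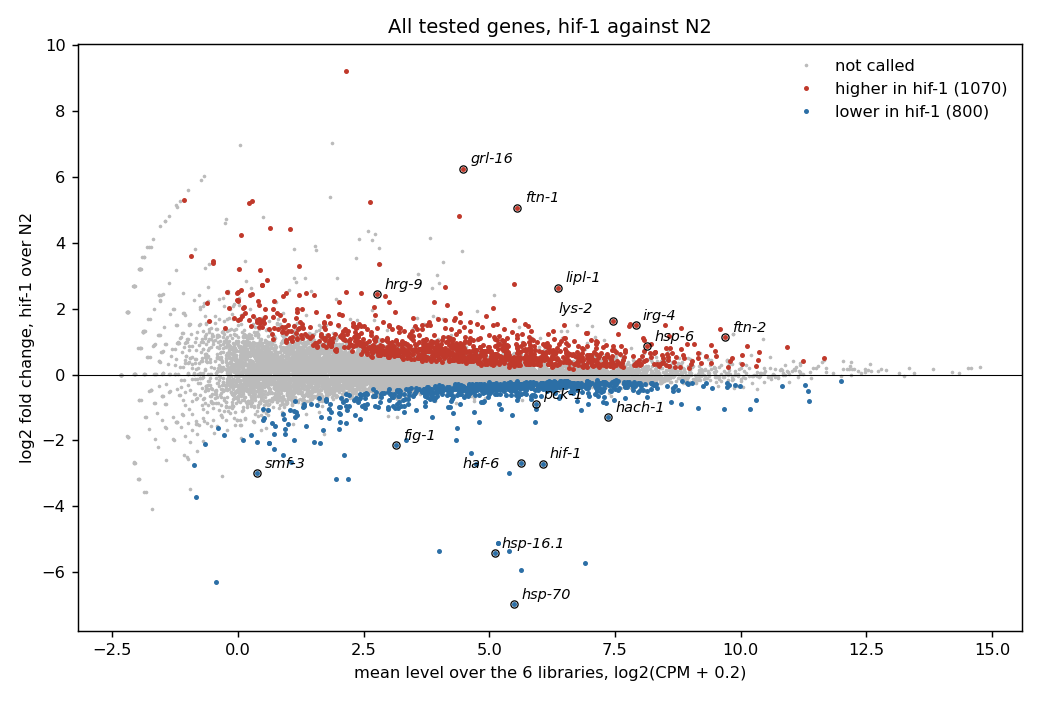
Log2 fold change of hif-1 over N2 (y axis) against the mean level over the 6 libraries, log2(CPM + 0.2) (x axis), for the 12974 tested genes, with 1070 called higher in red, 800 called lower in blue and the rest in grey. Labelled genes are described in the text. The ferritin gene ftn-1 stands at 5.06 and the heat shock gene hsp-70 at −6.98.

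The mutated gene itself was lower in every mutant library. The hif-1 gene had 13.3, 21.1 and 18.9 CPM in hif-1, against 131, 105 and 109 CPM in N2, a change of −2.71 ± 0.12 (edgeR adjusted p = 7.5e-11), and the groups did not overlap. Its remaining counts were assigned mostly to the transcript F38A6.3c, with 117, 135 and 138 estimated counts in hif-1 libraries, against 842, 469 and 583 in N2 libraries. The transcript F38A6.3e was listed at 0 in the 3 hif-1 libraries, against 0.017, 161 and 125 estimated counts in N2 libraries, so in N2 replicate 1 it was also near 0. A count per transcript is an estimate and does not show which exons were read.

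Of the 10 measured genes of the HIF-1 pathway, 3 were raised and 3 lowered in hif-1, beside 8.25% and 6.17% of all tested genes. The rhy-1 and egl-9 genes, negative regulators of HIF-1, were among the raised ones. The rhy-1 gene had 60.2, 62.8 and 57.3 CPM in hif-1, against 40.9, 35.1 and 35.9 CPM in N2 (0.69 ± 0.08), and egl-9, the oxygen-sensing hydroxylase, had 32.2, 29.7 and 30.1 CPM in hif-1, against 20.7, 19.1 and 22.2 CPM in N2 (0.57 ± 0.1). All 3 hif-1 libraries lay above all 3 N2 libraries for both. The cysl-1 gene was at 0.42 ± 0.13, a call that was lost in 9 of the alternative settings. Besides hif-1 itself, 2 members linked to cullin ubiquitin ligases were lowered. They were rbx-1, the RING-finger subunit, at −0.6 ± 0.13, and elb-1, the elongin B gene, at −0.6 ± 0.2 with groups that overlapped and an edgeR adjusted p of 0.0483. In 10 of 14 alternative settings, DESeq2 and the replicate block among them, 2 members of the pathway were lowered instead of 3. The cul-2, vhl-1, aha-1 and swan-1 genes had changes of −0.13, 0.08, −0.06 and −0.05 and did not pass the test. The vhl-1 transcript is rare, at 1.37 to 2.13 CPM in hif-1 and 1.09 to 2.24 CPM in N2, so a moderate change in it was not detectable at this depth.

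Known HIF-1 targets moved both ways. Of 10 measured targets, the same rhy-1 and egl-9 were raised and 2 were lowered, and the median of the list was 0.01. The lowered targets handle cyanide and hydrogen sulfide. The cyanoalanine synthase gene cysl-2 had 8.32, 8.05 and 9.94 CPM in hif-1, against 15.8, 15.8 and 19.7 CPM in N2 (−0.96 ± 0.13). The sulfide:quinone oxidoreductase gene sqrd-1 had 2.43, 0.991 and 1.99 CPM in hif-1, against 5.69, 7.3 and 4.59 CPM in N2 (−1.67 ± 0.26, edgeR adjusted p = 0.000415). Both sets of libraries were apart in each of these genes. The 6 remaining targets did not pass the test. Among these nhr-57, a nuclear receptor gene used as a HIF-1 reporter, was at −0.40 with overlapping groups (adjusted p = 0.0864), and the prolyl 4-hydroxylase gene phy-2 and the cysteine dioxygenase gene cdo-1 were at −0.04 and 0.07. The flavin monooxygenase gene fmo-2 was at 1.14 ± 0.93 on very few counts. For comparison, in egl-9 worms the lowered pair stood far above N2, cysl-2 at a log2 fold change of 5.4 and sqrd-1 at 7.57.

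Within sulfide and cysteine metabolism, 2 of 22 measured genes were raised (9.09%) and 3 lowered (13.6%), beside 8.25% and 6.17% of all tested genes. The raised share was thus near that of all genes. Besides those already given, the cystathionine beta-synthase gene cbs-1 had 35.1, 37.7 and 37.8 CPM in hif-1, against 13.2, 17.8 and 21.3 CPM in N2 (1.08 ± 0.17), with no overlap. The methanethiol oxidase gene semo-1 was at −0.81 ± 0.21, a call lost in 3 settings. The other mercaptopyruvate sulfurtransferase, cystathionase and glutathione synthesis genes did not pass the test. The number of raised members was 5 without N2 replicate 3 and 1 without any other single library.

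**Figure D2:**
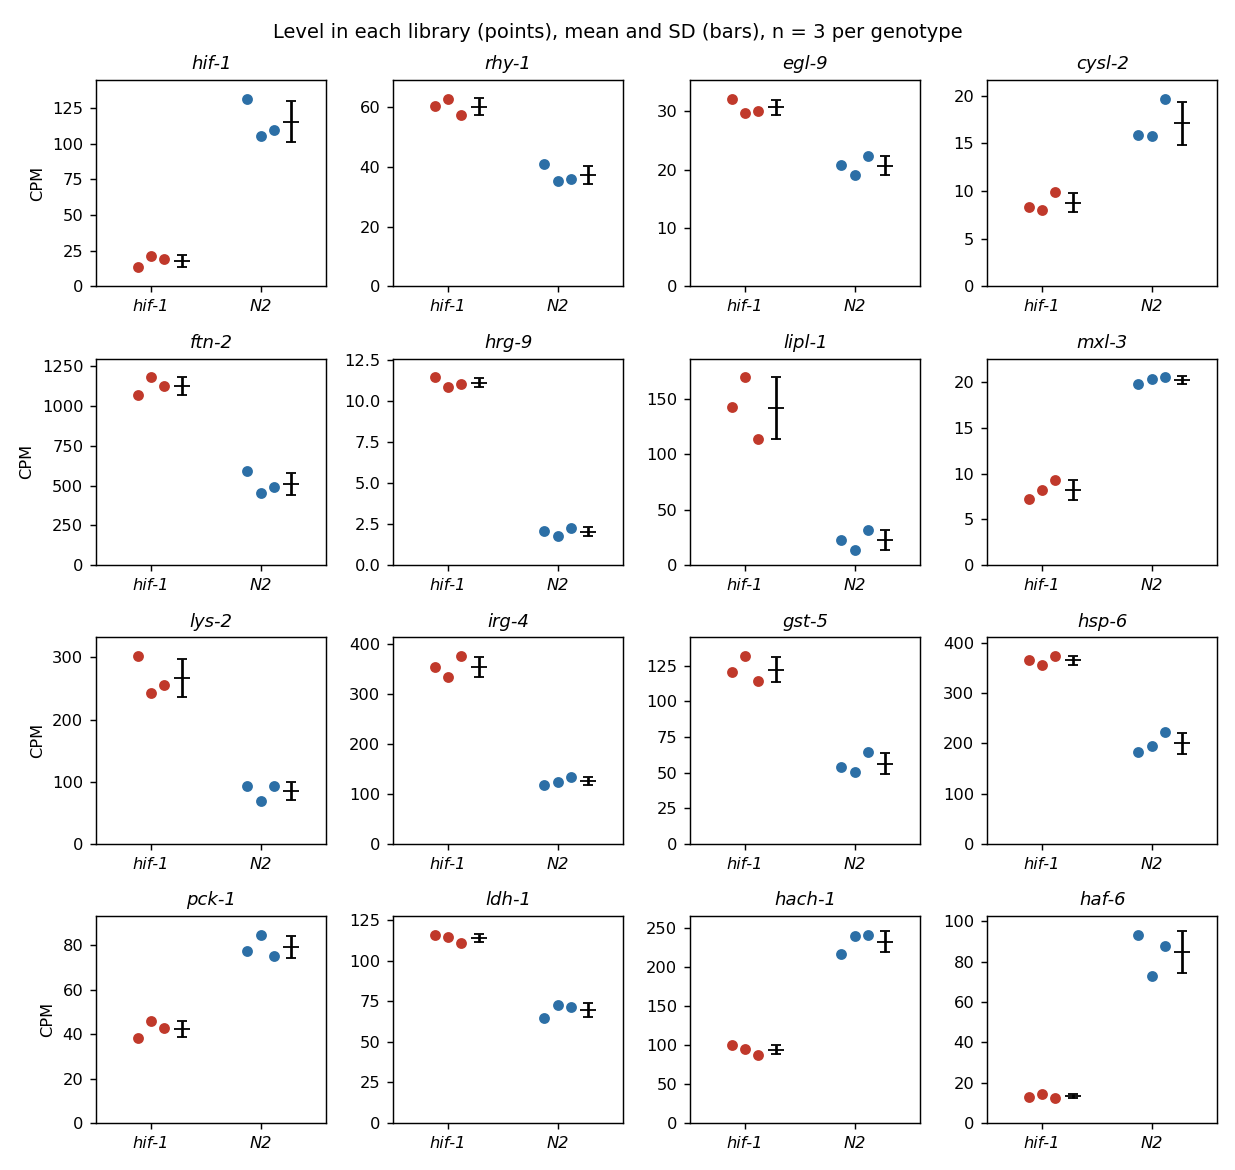
Level in CPM (y axis, from 0, a scale for each gene) of 16 genes in each hif-1 library (red points, left) and each N2 library (blue points, right), with the mean and SD of the 3 libraries as black bars. In each of the 16 genes the 3 hif-1 libraries lie wholly above or wholly below the 3 N2 libraries. This was a condition for choosing them and so is not a result.

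Both ferritin genes, which encode the iron storage protein, were raised. The ferritin gene ftn-1 had 95.2, 109.6 and 68.4 CPM in hif-1, against 3.93, 1.18 and 2.9 CPM in N2, a change of 5.06 ± 0.26 (edgeR adjusted p = 3.7e-10). The second ferritin gene, ftn-2, had 1069.9, 1180.2 and 1126 CPM in hif-1, against 589, 455 and 494 CPM in N2, a change of 1.13 ± 0.11. Per length, as length-scaled transcript abundance (TPM), ftn-2 was the more abundant ferritin transcript in both strains. It averaged 3176 ± 67.4 TPM in hif-1 and 1553 ± 232 TPM in N2, while ftn-1 averaged 266 ± 61.6 TPM in hif-1 and 8.35 ± 4.42 TPM in N2 (SD, n = 3). The iron importer gene smf-3, a relative of mammalian DMT1, moved the other way, with 0, 0 and 0.745 CPM in hif-1, against 1.97, 1.88 and 2.05 CPM in N2 (−3.01 ± 0.64). It is a rare transcript here, with 6 counts over the 3 hif-1 libraries. A second importer gene, smf-1, was at 0.54 ± 0.18 (edgeR adjusted p = 0.0456) and lost its call in 11 of the alternative settings. The cytosolic aconitase gene aco-1 was at 0.21 ± 0.09, the ferroportin genes fpn-1.1 and fpn-1.2 at 0.12 and −0.54, and the frataxin gene frh-1 at 0.13, none past the test. In all, 3 of 8 iron genes were raised and 1 lowered, beside 8.25% and 6.17% of all tested genes. The calls of ftn-1, ftn-2 and smf-3 held in every alternative setting.

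The other genotypes were set beside the comparison for the iron genes. The ftn-1 transcript averaged 91.1 ± 20.9 CPM in hif-1, 68.2 ± 6.55 CPM in egl-9 hif-1, 266 ± 28.5 CPM in egl-9, 4.45 ± 1.48 CPM in rhy-1, 0.336 ± 0.107 CPM in vhl-1, 199 ± 26.6 CPM in egl-9;vhl-1 and 2.67 ± 1.39 CPM in N2 (SD, n = 3 each). Its change over N2 was 4.65 in egl-9 hif-1 and 6.61 in egl-9, against −2.96 in vhl-1 and 0.72 in rhy-1, the only value of these not past the test. The level in hif-1 and that in egl-9 hif-1, which share the hif-1 allele and no N2 library, did not differ past the threshold in the direct test (edgeR adjusted p = 0.108). For ftn-2 the mean level was 1125 ± 55.2 CPM in hif-1, 1087 ± 25.1 CPM in egl-9 hif-1, 1272 ± 64.8 CPM in egl-9, 553 ± 45.2 CPM in rhy-1, 319 ± 51.8 CPM in vhl-1, 1277 ± 42.6 CPM in egl-9;vhl-1 and 513 ± 69 CPM in N2 (SD, n = 3 each). The smf-3 transcript had its highest level in vhl-1, at 40.5 ± 9.33 CPM, where ftn-1 had its lowest. All changes over N2 share the same 3 N2 libraries, and the shares of tested genes called over N2 were 6.56% in egl-9 hif-1, 25.8% in egl-9, 29.6% in rhy-1, 12.5% in vhl-1 and 34.6% in egl-9;vhl-1.

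**Figure D3:**
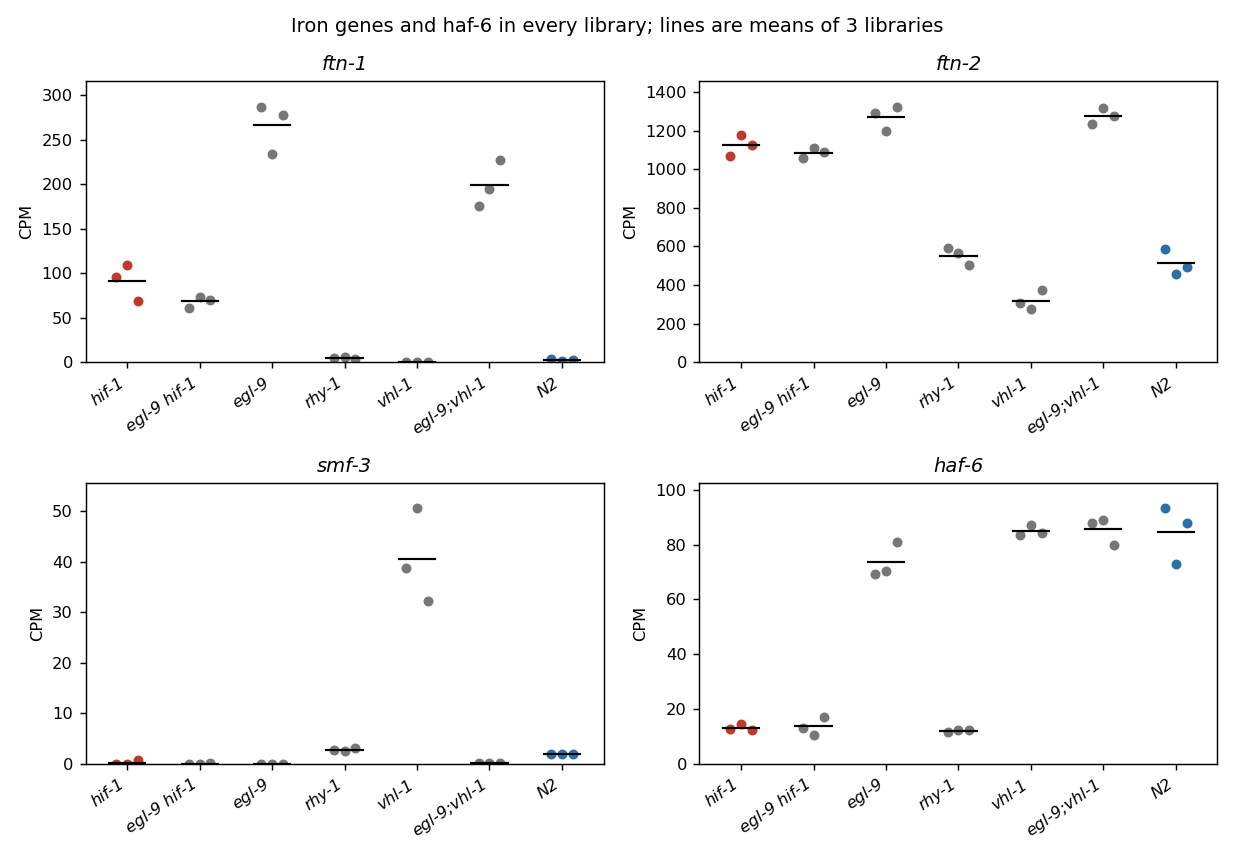
Level in CPM (y axis, from 0) of ftn-1, ftn-2, smf-3 and haf-6 in every library of the 7 genotypes (x axis, hif-1 in red, N2 in blue, others in grey), with a line at the mean of 3 libraries. Both ferritin genes are high in hif-1, egl-9 hif-1, egl-9 and egl-9;vhl-1, and haf-6 is low in hif-1, egl-9 hif-1 and rhy-1.

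Among 8 heme genes 1 was raised (3 without N2 replicate 1), beside 8.25% of all tested genes. It was the heme-responsive gene hrg-9, with 11.5, 10.9 and 11.1 CPM in hif-1, against 2.07, 1.77 and 2.3 CPM in N2 (2.44 ± 0.16, edgeR adjusted p = 2e-08). Its hif-1 libraries varied little and lay far above N2. In the direct test it was also higher in hif-1 than in egl-9 hif-1 (2.01 ± 0.16), where its mean was 2.74 ± 0.237 CPM. Smaller rises of hrg-9 over N2 passed the test in egl-9 (1.05), rhy-1 (1.07), vhl-1 (0.72) and egl-9;vhl-1 (1.15). The change of 0.43 in egl-9 hif-1 did not. The heme importer gene hrg-1 and the exporter gene mrp-5 were at 0.17 and 0.31 and did not pass the test.

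After hif-1 itself the lowered gene with the smallest p was haf-6, an ABC transporter gene known for a role in RNA interference. It had 12.9, 14.5 and 12.4 CPM in hif-1, against 93.2, 72.9 and 88 CPM in N2, a change of −2.67 ± 0.13 (edgeR adjusted p = 1.7e-10). It was as low in egl-9 hif-1 (−2.63 over N2) and in rhy-1 (−2.8), whereas egl-9 and vhl-1 were at −0.21 and 0.00 and did not pass the test. The direct test of hif-1 against egl-9 hif-1 gave −0.05 ± 0.14 for it. No other of the 7 measured genes of this transporter family was called, although 1 was raised without N2 replicate 3.

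Of 5 measured lysosomal lipase genes 2 were raised, beside 8.25% of all tested genes. The lysosomal lipase gene lipl-1 had 143, 169 and 114 CPM in hif-1, against 23, 13.8 and 31.7 CPM in N2 (2.64 ± 0.44), and lipl-2 had 64.1, 81.6 and 59 CPM in hif-1, against 14.7, 14.7 and 35.8 CPM in N2 (1.66 ± 0.36). In neither did the groups overlap, and all 5 measured lipl genes had positive changes, although lipl-3, lipl-5 and lipl-7 did not pass the test. The gene of the transcription factor MXL-3, which is known to repress lysosomal lipase genes in fed worms, was lowered, with 7.2, 8.18 and 9.32 CPM in hif-1, against 19.8, 20.4 and 20.5 CPM in N2 (−1.3 ± 0.24). The gene of its known antagonist HLH-30, chosen after its value was seen, was at 0.35 (adjusted p = 0.0258). In egl-9 hif-1 the changes over N2 were 0.49 for lipl-1 and −0.12 for lipl-2, neither past the test. There mxl-3 was lowered as well (−1.01, edgeR adjusted p = 0.0149). In egl-9 all 3 genes were called lower than N2, mxl-3 at −1.08, lipl-1 at −1.49 and lipl-2 at −1.71. In rhy-1 and vhl-1 mxl-3 was at −0.45 and −0.50, neither past the test. A link between mxl-3 and the lipase genes was not tested. The direct difference of hif-1 over egl-9 hif-1 was 2.15 for lipl-1 (edgeR adjusted p = 0.00127) and 1.77 for lipl-2 (0.00143). For mxl-3 it was −0.29 and did not pass the test (0.407).

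Among 16 fatty acid desaturase and elongase genes, 4 were raised (25%, beside 8.25% of all tested genes), with a list median of 0.38. The palmitoyl-CoA desaturase gene fat-5 had 29.7, 39.1 and 39.9 CPM in hif-1, against 4.24, 17.3 and 15 CPM in N2 (1.58 ± 0.37), the stearoyl-CoA desaturase gene fat-7 was at 0.87 ± 0.21, and the elongase genes elo-2 and elo-1 were at 0.67 ± 0.15 and 0.43 ± 0.1. The fat-7 call was lost in 3 settings. Without hif-1 replicate 3 the list had 2 raised members and 1 lowered, and without hif-1 replicate 1 or with the replicate block it had 6 raised. In egl-9, rhy-1 and vhl-1 worms fat-5 and fat-7 had changes over N2 between −5.11 and −2.73.

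Of 62 fatty acid oxidation genes, 14 were raised (22.6%, 9 genes without hif-1 replicate 3) and 6 lowered (9.68%), beside 8.25% and 6.17% of all tested genes. Those raised included the acyl-CoA oxidase gene acox-1.4 (0.9 ± 0.13), the acyl-CoA synthetase gene acs-14 (0.56 ± 0.09) and the carnitine palmitoyltransferase gene cpt-5 (1.04 ± 0.17). Those lowered were the acyl-CoA dehydrogenase genes acdh-1 and acdh-2, the hydroxyacyl-CoA dehydrogenase gene hacd-1, the enoyl-CoA hydratase gene ech-6, the carnitine palmitoyltransferase gene cpt-1 and the thiolase gene kat-1. The hacd-1 gene had 15.8, 12.9 and 15.2 CPM in hif-1, against 35.4, 44.6 and 40.8 CPM in N2 (−1.46 ± 0.2), and acdh-2 was at −2.0 ± 0.37.

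Several lowered genes belong to the propionate shunt, the route that breaks down propionate without vitamin B12. Its 5 genes, put together after their values were seen, were each called lower in hif-1, so their common direction is only a description. The acyl-CoA dehydrogenase gene acdh-1 had 761, 754 and 766 CPM in hif-1, against 1707, 1434 and 1558 CPM in N2 (−1.04 ± 0.17). The hydrolase gene hach-1 had 99.6, 95.4 and 87.8 CPM in hif-1, against 217, 241 and 242 CPM in N2 (−1.31 ± 0.1, edgeR adjusted p = 8e-08). The dehydrogenase gene hphd-1 had 533, 556 and 498 CPM in hif-1, against 1079, 1043 and 1167 CPM in N2 (−1.05 ± 0.13). The ech-6 gene was at −0.71 ± 0.11 and alh-8, the last enzyme of the route, at −0.26 ± 0.07. In each of these genes all 3 hif-1 libraries lay below all 3 N2 libraries. The other mutants were lower than N2 in hach-1 as well, with log2 fold changes of −1.17 in egl-9 hif-1, −2.19 in egl-9, −1.70 in rhy-1 and −1.2 in vhl-1, all against the same N2 libraries. In egl-9 hif-1 acdh-1 stood at −0.07, and the direct test put it lower in hif-1 than there (−0.98, edgeR adjusted p = 0.000541).

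Genes of the B12-dependent route and of the methionine cycle were lowered in part. Of 16 methionine cycle and B12 genes, 4 were lowered (25%) and 1 was raised (6.25%), beside 6.17% and 8.25% of all tested genes. The raised one was the phosphoethanolamine methyltransferase gene pmt-1 (0.31). The methylmalonyl-CoA epimerase gene mce-1 was at −0.74 ± 0.11, mmaa-1 at −0.56 ± 0.09, the S-adenosylmethionine synthetase gene sams-3 at −0.39 ± 0.09 and the S-adenosylhomocysteine hydrolase gene ahcy-1 at −0.36 ± 0.1. The propionyl-CoA carboxylase genes pcca-1 and pccb-1 were at 0.06 and 0.01 and did not pass the test. Without N2 replicates 2 and 3 the list had 1 lowered gene. The pmt-1 call was lost without hif-1 replicate 2, hif-1 replicate 3, N2 replicate 1 or N2 replicate 2.

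Of 22 glycolysis and gluconeogenesis genes 3 were raised (13.6%) and 1 was lowered (4.55%), beside 8.25% and 6.17% of all tested genes, with a median of 0.01. The raised count was 1 without hif-1 replicate 2, hif-1 replicate 3 or N2 replicate 1, and the lowered count was 2 without N2 replicate 3. The phosphoenolpyruvate carboxykinase gene pck-1, which opens gluconeogenesis, had 38.4, 45.8 and 42.7 CPM in hif-1, against 77.7, 84.7 and 75.4 CPM in N2 (−0.91 ± 0.08, edgeR adjusted p = 3.5e-07). It was likewise low in egl-9 hif-1 (−1.47), against 3.92 in egl-9, 2.80 in rhy-1 and 2.25 in vhl-1. The lactate dehydrogenase gene ldh-1 had 116, 114.8 and 111 CPM in hif-1, against 65, 72.6 and 71.6 CPM in N2 (0.71 ± 0.07). In the direct test ldh-1 was higher in hif-1 than in egl-9 hif-1 by 1.14 (edgeR adjusted p = 2.2e-08). The other raised members were pyk-1 at 0.21 ± 0.05 and ipgm-1 at 0.26 ± 0.07. Of 23 TCA and glyoxylate cycle genes 2 were raised (8.7%, near the share of all genes), suca-1 and sucl-1 at 0.26 and 0.27, and these calls were lost in 8 and 9 of the alternative settings. Both were lost when hif-1 replicate 1, hif-1 replicate 3, N2 replicate 1 or N2 replicate 2 was left out. Of 40 respiratory chain genes 4 were raised (10%) and 1 lowered (2.5%, a call lost in 8 of the settings). With 1 library left out the raised count ran from 0 by edgeR, without hif-1 replicate 3, to 3, and was 1 without N2 replicate 1 or N2 replicate 2 and 2 without hif-1 replicate 1, without hif-1 replicate 2 or with the replicate block. Of 6 kynurenine pathway genes 2 were raised, acsd-1 at 0.77 ± 0.18 and kmo-1 at 0.55. Both calls were lost without hif-1 replicate 2 or N2 replicate 2, and 1 was lost without hif-1 replicate 3, N2 replicate 1 or N2 replicate 3. The gene of D-hydroxyglutarate dehydrogenase, dhgd-1, had 118.98, 121 and 116 CPM in hif-1, against 193, 199 and 185 CPM in N2 (−0.7 ± 0.06).

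Genes of the intestinal defence against bacteria were raised in several families. The lysozyme gene lys-2 had 302, 242 and 256 CPM in hif-1, against 94, 68.5 and 93.9 CPM in N2 (1.64 ± 0.12, edgeR adjusted p = 4.9e-08). Next, lys-1 had 373, 363 and 359 CPM in hif-1, against 192, 168 and 165 CPM in N2 (1.06 ± 0.08), and lys-7 had 49.8, 66.6 and 41.2 CPM in hif-1, against 19, 19.6 and 15.2 CPM in N2 (1.55 ± 0.19). In all 3 genes the hif-1 libraries lay above the N2 libraries without overlap. Changes over the same N2 libraries in egl-9, rhy-1 and vhl-1 were 2.14, 0.55 and 1.40 for lys-2. They were 0.85, −0.12 and 0.56 for lys-1 and 2.35, 2.70 and −1.02 for lys-7. Of these, just the −0.12 of lys-1 in rhy-1 did not pass the test. Of 11 lysozyme genes 4 were raised (36.4%) and 1 was lowered, beside 8.25% and 6.17% of all tested genes. The lowered one was the rare lys-5 (−1.36), a call lost without hif-1 replicate 2 or N2 replicate 2.

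Infection-response genes followed the same direction. Of 17 dod and irg genes, which are named for regulation by DAF-16 or by infection, 7 were raised (41.2%), with a median of 0.54. The share of all tested genes raised was 8.25%. The irg-4 gene had 353, 335 and 376 CPM in hif-1, against 118.97, 124 and 134 CPM in N2 (1.5 ± 0.17), irg-3 had 63.9, 81.4 and 86.8 CPM in hif-1, against 39.5, 34 and 35.2 CPM in N2 (1.09 ± 0.14), and dod-22 had 16.6, 16.6 and 17.1 CPM in hif-1, against 3.1, 4.36 and 7.97 CPM in N2 (1.72 ± 0.27). The irg-5 gene was raised over N2 (1.40) while egl-9 hif-1 was at −1.69, and the direct difference between these genotypes was 3.09 (edgeR adjusted p = 1.2e-07). Its change over N2 was also positive in egl-9 (2.96), vhl-1 (1.33) and egl-9;vhl-1 (1.78), and was −0.19 in rhy-1, not past the test. For dod-22 the changes over the same N2 libraries were 2.25 in egl-9, 1.23 in rhy-1 and 1.79 in vhl-1. Of 107 C-type lectin genes, 25 were raised (23.4%) and 6 lowered (5.61%), beside 8.25% and 6.17% of all tested genes. The lowered share was thus near that of all genes. The raised lectins included clec-265 at 1.5 ± 0.19, clec-7 at 1.59 ± 0.26 and clec-166 at 0.86 ± 0.13, and the lowered ones clec-47 at −1.24. The lowered lectins numbered 3 without hif-1 replicate 3 or N2 replicate 1. In egl-9, rhy-1 and vhl-1 the changes over N2 were 1.92, 1.18 and 1.02 for clec-265. For clec-166 they were −0.34, 0.18 and 0.89, of which just that in vhl-1 passed the test. Of 12 saposin-like genes, whose products open bacterial membranes, 4 were raised, and spp-2 had 57.7, 65.4 and 47.5 CPM in hif-1, against 25.9, 20.02 and 18.7 CPM in N2 (1.4 ± 0.21). The raised saposin-like genes numbered 2 without hif-1 replicate 1, hif-1 replicate 2 or N2 replicate 1, and the calls of spp-18 and spp-10 were lost in 7 and 11 of the settings. Of 9 antimicrobial peptide genes 2 were raised, thn-2 and nlp-27, and nlp-31 was lowered at −1.80. There was 1 raised without hif-1 replicate 2 or N2 replicate 2, and the nlp-31 call was lost without N2 replicate 1.

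Detoxification families had more raised than lowered members, where 8.25% of all tested genes were raised and 6.17% lowered. Of 32 glutathione S-transferase genes 12 were raised (37.5%) and 1 lowered, with a median of 0.49. The gst-5 gene had 121, 132 and 114.5 CPM in hif-1, against 54.1, 50.5 and 64.8 CPM in N2 (1.12 ± 0.13), and gst-13 had 149, 143 and 145 CPM in hif-1, against 86.9, 78.6 and 85.5 CPM in N2 (0.8 ± 0.11). Of 52 cytochrome P450 genes 13 were raised (25%) and 1 lowered, with a median of 0.48. The cyp-13A12 gene, known for a part in the behavioural response to reoxygenation, had 11.4, 15.1 and 10.7 CPM in hif-1, against 1.66, 2 and 3.5 CPM in N2 (2.38 ± 0.34). The cyp-36A1 gene, known to act downstream of EGL-9, was at 1.49 ± 0.17, and cyp-33C8 at 1.37 ± 0.17. Of 60 UDP-glucuronosyltransferase genes 10 were raised (16.7%) and 4 lowered (6.67%), so the lowered share was near that of all genes. The raised ones included ugt-61 at 1.13 ± 0.16 and the lowered ones ugt-63 at −1.43 ± 0.22. Without N2 replicates 2 and 3, only 4 glutathione S-transferase, 5 cytochrome P450 and 5 UDP-glucuronosyltransferase genes were raised. With 1 library left out, the raised glutathione S-transferase genes numbered 6 without hif-1 replicate 3 or N2 replicate 2. The raised P450 genes numbered 6 without hif-1 replicate 2 or N2 replicate 2 and 8 without hif-1 replicate 3 or N2 replicate 3. The raised UDP-glucuronosyltransferase genes numbered 6 without hif-1 replicate 3 and 3 without N2 replicate 2, and the lowered ones 2 without N2 replicate 1. The lowered glutathione S-transferase lost its call in 10 of the settings. Of 20 antioxidant enzyme genes, 1 was raised, the catalase gene ctl-2 (0.53 ± 0.12, lost without hif-1 replicate 2, with 2 raised without N2 replicate 2), and 1 lowered, gpx-2 (−0.91, lost in 9 of the settings).

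**Figure D4:**
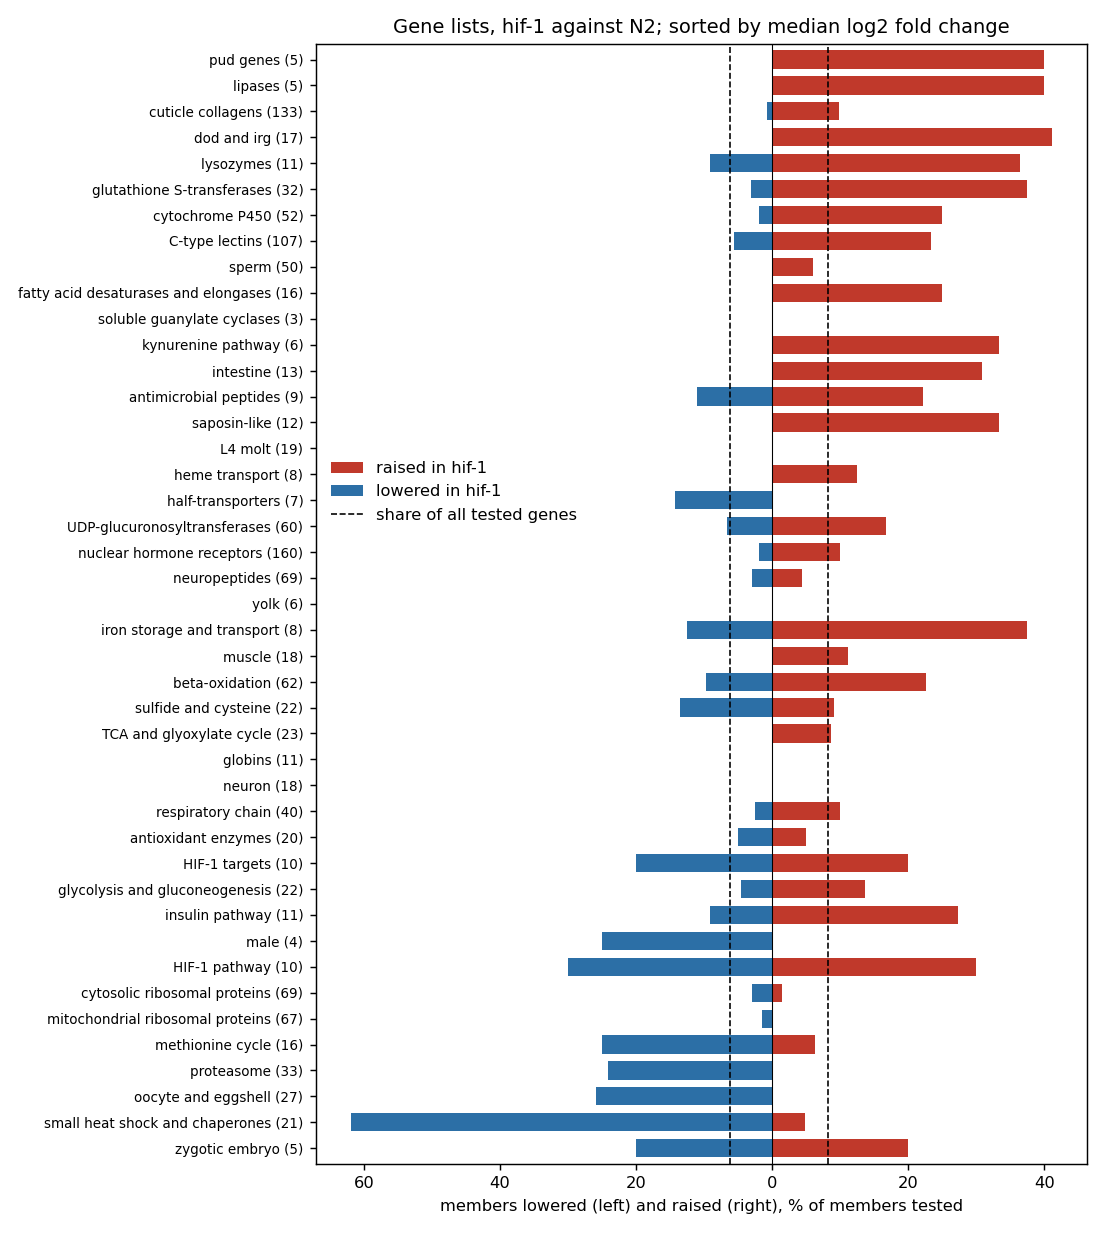
Share of the tested members of 43 gene lists (y axis, number tested in brackets) that were called raised in hif-1 (red, to the right) or lowered (blue, to the left), in percent of members (x axis). Dashed lines mark the share of all tested genes, 8.25% raised and 6.17% lowered. Lysozymes, dod and irg genes and glutathione S-transferases reach 36.4% to 41.2% raised, and the heat shock list reaches 61.9% lowered.

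Inducible heat shock genes had some of the largest falls, and against N2 these rested on 2 of the N2 libraries. The hsp-70 gene had 1.22, 0.496 and 0.248 CPM in hif-1, against 1.97, 126 and 139 CPM in N2 (−6.98 ± 1.44), and hsp-16.1, a small heat shock gene, had 2.03, 1.61 and 0.87 CPM in hif-1, against 2.59, 75.3 and 123 CPM in N2 (−5.43 ± 1.2). N2 replicate 1 was close to the mutants in both, and N2 replicates 2 and 3 were far above them. The same held for hsp-16.2, hsp-16.41 and hsp-16.48, where N2 replicate 1 lay inside or below the range of the hif-1 libraries. The symbol hsp-16.48 is held by 2 near-identical gene copies, which the list counts separately and whose reads cannot be told apart. The symbol hsp-16.1 is likewise shared by several identifiers, and the values given for it are those of 1 of them. F44E5.5, which belongs to the same inducible HSP70 family and has a near-identical copy, had 0, 4.96 and 0 CPM in hif-1, against 12.8, 133 and 147 CPM in N2. Of 21 heat shock and chaperone genes 13 were lowered (61.9%) and 1 was raised, beside 6.17% and 8.25% of all tested genes. Without N2 replicates 2 and 3 the count of lowered members was 0 by edgeR's quasi-likelihood test, with 4 at an unadjusted p below 0.05. The egl-9 hif-1 libraries were high as well, with 64.6 ± 8.94 CPM of hsp-70 and 83.3 ± 10.2 CPM of hsp-16.1 (SD, n = 3). The direct test compares no N2 library, although the N2 libraries entered the shared fit and its estimate of the spread. In this test hif-1 was lower than egl-9 hif-1 in hsp-70 (−6.52 ± 1.45, edgeR adjusted p = 0.00264) and hsp-16.1 (−5.75 ± 1.2, 0.0017). Of the 21 members 10 were lower and 3 higher, beside 12.8% and 17.7% of all tested genes. Abundant chaperones differed less, with hsp-90 at −0.79 ± 0.14, hsp-1 at −0.49 ± 0.1 and hsp-110 at −0.5 ± 0.09, and were again highest in N2 replicates 2 and 3. The endoplasmic reticulum chaperone gene hsp-4 had 218, 222 and 214 CPM in hif-1, against 205, 337 and 498 CPM in N2, with overlapping groups.

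The raised member of this list was the mitochondrial HSP70 gene hsp-6, a marker of mitochondrial stress. It had 366, 356 and 373 CPM in hif-1, against 182, 195 and 223 CPM in N2 (0.87 ± 0.07, edgeR adjusted p = 1.7e-07), with no overlap, and the call held in every alternative setting. The change was 0.04 in egl-9 hif-1, and hif-1 was higher than egl-9 hif-1 in the direct test (edgeR adjusted p = 4.4e-07). The mitochondrial chaperonin gene hsp-60 was at −0.27 ± 0.07, in the opposite direction.

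**Figure D5:**
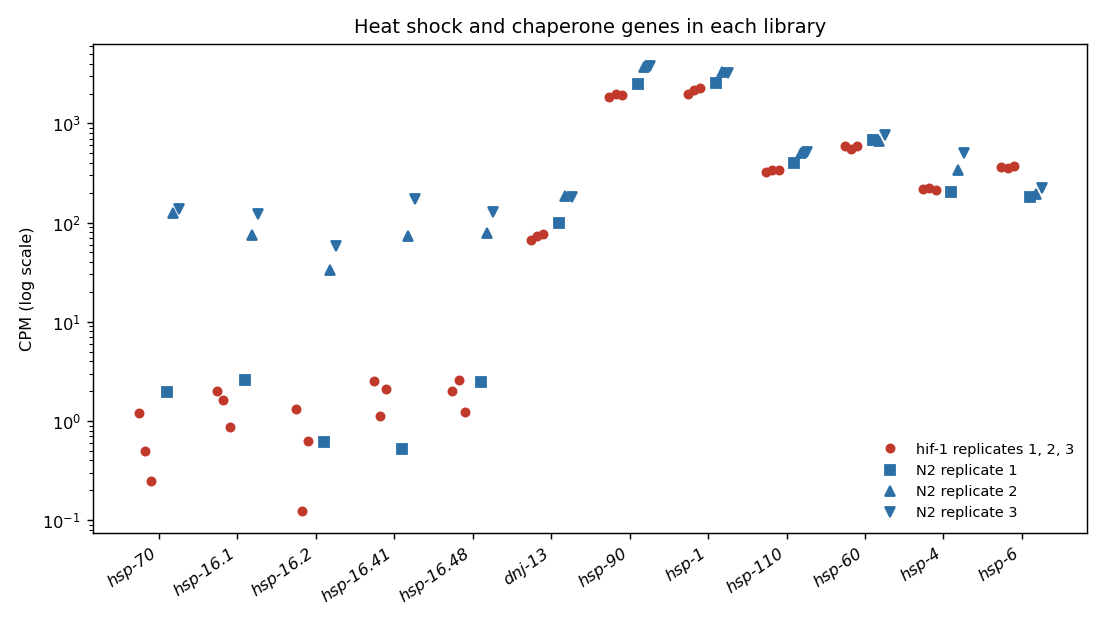
Level in CPM (y axis, log scale) of 12 heat shock and chaperone genes in the 3 hif-1 libraries (red circles, left of each pair) and in N2 replicates 1, 2 and 3 (blue square, upward and downward triangle). For hsp-70 and the hsp-16 genes N2 replicate 1 lies with the hif-1 libraries and N2 replicates 2 and 3 lie far above, whereas hsp-6 is above N2 in all 3 hif-1 libraries.

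Other large changes fell outside these families. Among the raised genes, saeg-2, first found as a suppressor of active EGL-4 kinase, had 27.2, 23.7 and 21.7 CPM in hif-1, against 4.03, 3.65 and 8.22 CPM in N2 (2.2 ± 0.23). The neprilysin-like peptidase gene nep-23 had 22.2, 30.6 and 33 CPM in hif-1, against 5.59, 6.95 and 7.25 CPM in N2 (2.12 ± 0.28). The nta-1 and txt-4 genes were at 1.68 ± 0.19 and 1.67 ± 0.24. F01D5.1 and F15B9.10, which have no gene name in the annotation, were at 2.67 ± 0.15 and 1.29 ± 0.1 with some of the smallest p-values. F01D5.1 was above N2 in egl-9 (4.18), vhl-1 (3.07) and rhy-1 (2.38) as well. The groundhog-like gene grl-16 had 101, 1.11 and 29.1 CPM in hif-1, against 0.621, 0.471 and 0.604 CPM in N2 (6.25 ± 2.0), so 1 mutant library was close to N2, and its call was lost in 8 settings.

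C07G1.7, chosen after its value was seen, had 222 counts over the 3 hif-1 libraries and 0 over the 3 N2 libraries. With 3 counts taken as the limit for the N2 group, it was at least 75.3-fold higher in hif-1. Its level was 10.04, 7.56 and 7.70 CPM in hif-1, against a mean of 0.0356 CPM in egl-9 hif-1, which carries the same allele, and 0.0683 to 0.189 CPM in egl-9, rhy-1, vhl-1 and egl-9;vhl-1.

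Among the lowered genes, pgph-3, a phosphoglycolate phosphatase gene, had 6.39, 6.81 and 7.83 CPM in hif-1, against 60.4, 34.7 and 42.4 CPM in N2 (−2.71 ± 0.48). Its change over N2 was −2.82 in vhl-1, 2.60 in rhy-1 and, not past the test, 1.05 in egl-9 hif-1. The amphid glia gene fig-1 had 3.35, 3.22 and 2.98 CPM in hif-1, against 13.8, 12.7 and 15.9 CPM in N2 (−2.14 ± 0.25), and no other genotype moved it past the test, with values between −0.37 and 0.25. In the direct test fig-1 was lower in hif-1 than in egl-9 hif-1 (−1.99, edgeR adjusted p = 3.4e-05). The STRIPAK complex gene farl-11 had 112, 109 and 107 CPM in hif-1, against 158, 165 and 171 CPM in N2 (−0.59 ± 0.06). The choline kinase gene ckb-2 had 9.13, 7.68 and 7.21 CPM in hif-1, against 11.4, 28.1 and 56.4 CPM in N2 (−1.98 ± 0.43), and its call was lost without N2 replicates 2 and 3.

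Markers of stage and tissue moved as well, and their part in the changes above was not tested. All 27 measured oocyte and eggshell genes had negative changes, and 7 were lowered (25.9%, beside 6.17% of all tested genes), with a median of −0.23. The summed level of these genes was 13040 to 14880 CPM in hif-1 and 14290 to 16440 CPM in N2, so the ranges overlapped. The RNA-binding protein gene oma-1, needed for oocyte maturation, had 162, 156 and 144 CPM in hif-1, against 217, 220.4 and 185 CPM in N2 (−0.43 ± 0.08), and the eggshell gene cpg-2 had 728, 779 and 697 CPM in hif-1, against 995, 1039.9 and 839 CPM in N2 (−0.38 ± 0.08). The number of lowered members was 4 without hif-1 replicate 3, 3 without N2 replicate 1 and 15 without N2 replicate 3. The summed level of 50 sperm genes was 6367 to 10350 CPM in hif-1 and 5053 to 7798 CPM in N2. Of these genes 3 were raised (6%, beside 8.25% of all tested genes), gsp-3, fer-1 and msp-38. This count was 25 without hif-1 replicate 1, 10 without N2 replicate 3 and 0 by edgeR without hif-1 replicate 2, hif-1 replicate 3, N2 replicate 1 or N2 replicate 2. At an unadjusted p below 0.05, 27 sperm genes were higher with all libraries and 5 to 19 in those last settings.

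All 13 intestinal genes had positive changes, and 4 were raised (30.8%), the cysteine protease gene cpr-1 (0.93 ± 0.15), gst-42, the intermediate filament gene ifb-2 and elt-2, the main intestinal transcription factor gene (0.75 ± 0.23, a call lost in 9 settings). The count was 1 without hif-1 replicate 3 or N2 replicate 2 and 2 without hif-1 replicate 2 or N2 replicate 1. The summed level of the list was 6217 to 7335 CPM in hif-1 and 5523 to 5543 CPM in N2, a difference that runs the same way as the lysozyme, lectin and detoxification genes. Of 18 muscle genes 2 were raised (11.1%, beside 8.25% of all tested genes), unc-27 and mup-2, each at 0.27. Both calls were lost without hif-1 replicate 3 or N2 replicate 1, and 1 without any of hif-1 replicate 2, N2 replicate 2 and N2 replicate 3. Of 18 neuronal, 6 yolk protein and 19 L4 molt genes, edgeR called 0 in either direction. At an unadjusted p below 0.05 these lists had 5, 0 and 1 members, and DESeq2 called 0, 0 and 1. Without hif-1 replicate 1 edgeR raised 2 neuronal genes, and without hif-1 replicate 2 it raised 1 L4 molt gene. Of 5 zygotic embryo genes 1 was raised (pha-4) and 1 lowered (sdz-28), and of 4 male genes 1 was lowered (swm-1). The pha-4 call was lost without hif-1 replicate 2, the sdz-28 call without hif-1 replicate 1 or N2 replicate 1, and the swm-1 call without N2 replicate 1 or N2 replicate 2, while 2 embryo genes were lowered without hif-1 replicate 2. Before the filter on low counts, all 27 oocyte and eggshell genes, 53 of 57 sperm genes and 13 of 14 intestinal genes had counts in all 3 hif-1 libraries, and the same numbers had counts in all 3 N2 libraries.

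Collagens of the cuticle varied within the mutants. Of 133 genes 13 were raised (9.77%) and 1 was lowered (0.752%), beside 8.25% and 6.17% of all tested genes, so the raised share was near that of all genes. The median of the list was 0.79, and col-12 had 308, 249 and 414 CPM in hif-1, against 58.2, 88.2 and 206 CPM in N2 (1.46 ± 0.44). The mean log2 level of the list, relative to N2, was 1.35, 0.12 and 1.13 in hif-1 replicates 1, 2 and 3 and −0.32, −0.19 and 0.50 in N2 replicates 1, 2 and 3, so hif-1 replicate 2 lay below N2 replicate 3. Without N2 replicate 3 the list had 33 raised members, against 4 without hif-1 replicate 3, N2 replicate 1 or N2 replicate 2. DESeq2 raised 24. Of 5 pud genes 2 were raised (1 without hif-1 replicate 2), pud-3 and pud-4, in which hif-1 replicate 3 was nearest to N2.

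Of 33 proteasome genes 8 were lowered (24.2%), with a median of −0.20, and rpn-9 was at −0.46 ± 0.09. Without N2 replicates 2 and 3 the count was 1. It was 4 without hif-1 replicate 2, 3 without hif-1 replicate 3, 5 without N2 replicate 1 and 2 without N2 replicate 2. Of 69 cytosolic ribosomal protein genes 1 was raised and 2 were lowered (median −0.08), and of 67 mitochondrial ribosomal protein genes 1 was lowered (median −0.12), all below the 8.25% and 6.17% of all genes. With 1 library left out these ribosomal counts ran from 0 to 3 by edgeR, the 3 being mitochondrial without hif-1 replicate 1. Of 11 insulin pathway genes 3 were raised and 1 was lowered, the raised including the kinase gene sgk-1 (0.6 ± 0.16) and skn-1, the worm gene for an Nrf factor (0.22 ± 0.06). The raised count was 1 without hif-1 replicate 2, hif-1 replicate 3, N2 replicate 2 or N2 replicate 3, and all of these calls were lost without both N2 replicates 2 and 3. The lowered one lost its call without hif-1 replicate 3, N2 replicate 1 or N2 replicate 2, and 2 were lowered without N2 replicate 3. Of 160 nuclear hormone receptor genes 16 were raised (10%) and 3 lowered (4 and 3 without N2 replicates 2 and 3), with nhr-14 at 0.91 ± 0.17 and nhr-47 at −0.61 ± 0.11. The raised receptors numbered 9 without hif-1 replicate 2, 7 without hif-1 replicate 3 and 6 without N2 replicate 2, and the lowered ones 5 without N2 replicate 3. Of 69 neuropeptide genes 3 were raised (4.35%) and 2 lowered (2.9%). The 3 calls were lost without hif-1 replicate 2 or N2 replicate 2, with 1 raised without hif-1 replicate 3 or N2 replicate 1, and the lowered calls were lost without N2 replicate 1, with 1 lowered without hif-1 replicate 2, hif-1 replicate 3 or N2 replicate 2. Of 11 globin and 3 soluble guanylate cyclase genes, both groups tied to oxygen sensing, edgeR and DESeq2 called 0, and 0 were at an unadjusted p below 0.05.

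X-linked genes were raised far more often than lowered. Of 1741 tested X-linked genes 210 were raised (12.1%) and 34 lowered (1.95%), beside 8.25% and 6.17% of all tested genes. Raised genes also outnumbered lowered ones on chromosomes II (179 and 144 of 2251), IV (198 and 130 of 2278) and V (227 and 157 of 2465). Lowered genes were more numerous on chromosomes I (136 raised and 178 lowered of 2181) and III (117 and 157 of 2048). The X-linked median was 0.17, beside 0.04 for all genes, and 69.1% of X-linked genes had a positive change. The mean log2 level of X-linked genes, relative to N2, was 0.14, 0.17 and 0.20 in hif-1 libraries, against 0.00, −0.06 and 0.05 in N2 libraries. Few of these changes were large, and 31 X-linked genes (1.78%) were called at least 2-fold. Chromosome V held the most such genes, 134 of 2465 (5.44%). With RLE size factors the X-linked median was 0.15. The oocyte and eggshell genes moved in the same libraries in the opposite direction, and their part in the X-linked shift was not tested.

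The neighbourhood of the mutated gene was examined separately. In the WBcel235 assembly used here for annotation, whose match to the build of the submitters is unknown, hif-1 lies on chromosome V at 20780407 to 20785260, on the plus strand. Within 2 Mb of it 25 of 184 tested genes were called (13.6%), against 358 of 2280 on the rest of chromosome V (15.7%) and 1486 of 10509 on the other chromosomes (14.1%). The share was 17% within 1 Mb and 15.4% within 4 Mb, so it stayed near the genome-wide 14.4%.

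The egl-9 hif-1 genotype carries the same hif-1 allele and was compared with hif-1 directly. The N2 libraries were not part of this contrast but entered the shared fit and its estimate of the spread. Of the tested genes 3966 (30.6%) were called, 2302 higher (17.7%) and 1664 lower (12.8%) in hif-1. The hif-1 libraries are shared with the comparison to N2, so values of the same genes are given side by side and not counted as agreement. For ftn-2, haf-6, hach-1 and rhy-1 the direct test found no difference past the threshold, with changes over N2 of 1.13 and 1.08, −2.67 and −2.63, −1.31 and −1.17, and 0.69 and 0.57, each pair giving hif-1 before egl-9 hif-1. For gst-5, lys-1, saeg-2 and farl-11 the values were 1.12 and −0.35, 1.06 and 0.02, 2.20 and −0.04, and −0.59 and −0.01, and the direct test called each of them (edgeR adjusted p between 1.1e-07 and 4.3e-06). The stage lists differed between these genotypes too. Of 27 oocyte and eggshell genes 22 were lower in hif-1 than in egl-9 hif-1, and of 50 sperm genes 36 were higher. Against vhl-1, in which HIF-1 is not recognised for destruction, 3659 genes (28.2%) were called.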

How the data were processed

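Each of the 21 libraries was deposited as a table of 32905 transcripts with estimated counts and length-scaled abundances (TPM), made with kallisto per the submitters' processing notes, which also name bcl2fastq 1.8.4. A kallisto version, a transcript set and a build were not given in the sources used here. Estimated counts from the authors need not be whole, and 66.6% were within 1e-06 of it. Their sum per gene was rounded. The authors' TPM were summed per gene and used for levels between genes only.

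Transcripts were matched to the Ensembl 115 annotation (WBcel235): 28369 by transcript name and 4229 by sequence name, giving 21752 genes. The 307 unmatched transcripts, with 0.102 to 0.127% of the counts of a library, were left out. A total of 98 gene symbols are shared by several identifiers, which were kept apart.

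Genes were tested in 1 fit of all 21 libraries with the quasi-likelihood F-test of edgeR 4.0.16 in R 4.3.3, with genotype as its term, TMM size factors, filterByExpr at a minimum count of 10 and Benjamini-Hochberg adjustment over the 12974 genes kept. The common biological coefficient of variation was 0.15 on 14 residual degrees of freedom. Standard errors are the change over the root of F, which restates the test. The test was checked on simulated data. Levels of lists and of the X chromosome are mean log2(CPM + 0.2) relative to the mean of N2. Intervals and limits cover counting error only. No pair of libraries was identical, and replicates differed by more than sampling noise, with a chi-square per gene of 6.98 to 14.2.

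The genes named were, among called genes whose higher group averaged 10 CPM or more with no overlap between groups, the 12 raised and 12 lowered of largest change with a gene name, the 2 of largest change in each direction whatever their name, the 6 in each direction with the smallest p, up to 4 called members of each of 43 gene lists, and the pathway and iron genes. Other genes were named after their values were seen. Results on 2 of the genes are not reported here. The members and lists were chosen with earlier results of these data known, and 5 list entries matched no gene. The alternatives were RLE size factors, no or a stricter expression filter (minimum count 30), only the 2 genotypes in the fit, the replicate number as a block, DESeq2 1.42.0, an adjusted p below 0.01 and each library left out.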

Additional observations from a re-analysis of the deposited data

How the results depend on the processing

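With all 21 libraries the number of called genes was 1870. It was 1896 with RLE size factors (991 raised and 905 lowered) and 1630 without an expression filter (838 and 792). It was 1933 with the stricter filter (1041 and 892), 1770 with the replicate block (1022 and 748) and 2010 with DESeq2 (1067 and 943). It fell to 956 with only the 2 genotypes in the fit (639 raised and 317 lowered). At an adjusted p below 0.01 it was 624, with 401 raised, 223 lowered and 193 of at least 2-fold, and the direct comparisons had 2100 calls against egl-9 hif-1 and 1979 against vhl-1. With a library left out in turn the called genes numbered 840 to 2256, the raised 464 to 1360, the lowered 345 to 896 and those of at least 2-fold 236 to 608. The direct comparisons then had 2776 to 3522 calls against egl-9 hif-1 and 2517 to 3469 against vhl-1. The calls were 840 without N2 replicate 2, 862 without hif-1 replicate 3, 1072 without N2 replicate 1 and 1086 without hif-1 replicate 2, while those of at least 2-fold were 608 without N2 replicate 3. Without both N2 replicates 2 and 3, an alternative chosen after seeing the data, 1015 genes were called, 707 raised and 308 lowered, on the assumption that the lone N2 library varies like the other groups. Of the 1870 genes 703 were shared with that fit, 37.6% of the 1870 and 69.3% of its 1015. The cause of these shifts was not tested. Of 131 named genes no called change turned its direction in any setting, while the uncalled aha-1 and vhl-1 took both signs. The calls lost numbered 2 with RLE size factors, 2 with DESeq2, 14 without a filter and 5 with the replicate block. They numbered 23 with only the 2 genotypes in the fit and 35 at an adjusted p below 0.01. With 1 library left out, 14, 25 and 31 were lost without hif-1 replicates 1, 2 and 3. Without N2 replicates 1, 2 and 3 in turn, 26, 32 and 8 were lost. More were lost without both N2 replicates 2 and 3 than in any of these settings.

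The replicate numbers were not taken as pairs. Deviations of same-numbered hif-1 and N2 libraries from their group means correlated at 0.031, 0.087 and 0.252 for replicates 1, 2 and 3. Those of different-numbered libraries correlated at −0.207 to 0.137, so the value for replicate 3 was the highest. With the replicate number as a block the counts were 1770 called, 1022 raised, 748 lowered and 370 of at least 2-fold. RLE size factors moved the median of all genes by −0.018. The planned search for a hypoxia response motif in promoters was not run, because no sequence was used here. Depth limits rare transcripts, such as vhl-1, at most 2.24 CPM in any of the 6 libraries, and smf-3, at most 2.05 CPM.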
